A study of Mus musculus with 16 samples.

Results

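Hepatic RNA was compared between 4 mice on a high-fat diet and 4 mice on normal chow, all of them carrying an intact Degs1 gene, and all 14351 genes that passed a filter on low counts were examined. These 8 livers were chosen by the diet and genotype in their titles, out of 16 in the series. The 4 high-fat controls and the 4 chow controls are labelled only as controls. The other 8 livers, 4 high-fat and 4 chow, came from mice with a liver-specific knockout of Degs1, the dihydroceramide desaturase that completes ceramide synthesis. They enter here through the shared estimate of spread and as a second diet comparison. No source used here gives the strain, sex, age, composition and length of the diet or Cre driver. Animal numbers were 61 to 76 in high-fat controls and 194 to 220 in chow controls, so diet and range of animal numbers cannot be told apart. Livers are numbered 1 to 4 within a group, and the numbers do not pair them. Nothing in the labels says how the livers were divided over housing, dissection or sequencing, so p-values measure the spread between these livers.

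The liver takes up fatty acids from blood, makes more from sugar, and stores, burns or exports them. When dietary fat is plentiful and cholesterol reaches the cell, processing of the SREBP transcription factors falls and with it transcription of the enzymes that make sterols and fatty acids, whereas nuclear receptors of the PPAR family respond to fatty acids themselves. Mouse liver is also one of the most sexually dimorphic tissues. The pulsed growth hormone of males, acting through STAT5B, maintains one set of cytochromes P450, urinary proteins and serpins and silences another set that females express.

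Libraries held 14020001 to 18728453 total counts in high-fat controls and 14417061 to 23250885 in chow controls. The hepatocyte identity of the tissue was plain, and none of 12 hepatocyte markers was called. Their sum was 86172 to 124476 CPM (counts scaled to a common library size of 1e6) in high-fat controls. In chow controls it was 114605 to 134382 CPM. High-fat controls 1, 2 and 4, at 86172, 90657 and 88176 CPM, were below every chow control, and high-fat control 3 was inside their range. At an unadjusted p under 0.05 by edgeR, 3 of the 12 were lower, against 17.1% of all genes in either direction. Livers of the high-fat group were spread widely on the first 2 principal components, which held 39.8% and 21.8% of the variance. High-fat controls 1 and 2 lay at -70.9 and -52.3 on the first component and high-fat control 4 at -5.06, against 12.3 to 33.2 in chow controls. High-fat control 3 lay at the other end of that component, at 54.0, and was the highest on the second, at 59.98, where the other 7 livers lay between -33.1 and 13.5. It also had the smallest share of counts on sense-intronic and unproven (TEC) transcripts. That share stands in here for unspliced RNA and is called the share of unspliced RNA, but splicing itself was not measured. It was 0.164%, 0.123%, 0.0218% and 0.0512% of the library in high-fat controls 1 to 4. In chow controls 1 to 4 it was 0.0411%, 0.0369%, 0.0263% and 0.0339%. Counts were therefore also taken without high-fat control 3. In these bulk samples, fewer cells of a type and less RNA per cell cannot be told apart.

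The edgeR quasi-likelihood test called 262 of 14351 genes (1.83%) between high-fat and chow controls, at a Benjamini-Hochberg adjusted p under 0.05. Of these, 135 were higher (0.941% of genes tested) and 127 lower (0.885%). The median log2 fold change was 1.84 among genes called higher and -1.03 among genes called lower, at a median mean log2 CPM of 2.5 and 5.48; among protein-coding genes the medians were 1.33 and -1.01. The kinds of gene differed too: 124 of the 127 lower genes were protein coding, against 71 of the 135 higher ones. Another 28 of the higher genes were sense-intronic or TEC transcripts, 27 were other noncoding RNAs and 9 were pseudogenes. The 28 had a median log2 fold change of 3.07 at a median mean log2 CPM of 0.26. High-fat control 3 lay inside the range of the chow controls for 17 of those 28 unspliced-type transcripts, but for 3 of the 71 protein-coding genes called higher and 1 of the 124 called lower. The groups did not overlap for 101 of the 135 higher genes and 120 of the 127 lower ones; among all genes tested, 3.21% did not overlap in the upward direction and 4.01% in the downward direction.

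The number of calls rested on the livers included. Leaving out 1 of the 16 livers at a time gave between 103 calls (39 higher, 64 lower, without chow control 2) and 955 calls (629 higher, 326 lower, without high-fat control 3, which shared 260 of the 262). Counts also fell by more than 1.5 times without chow control 1 (160 calls), 3 (172) or 4 (113) and without high-fat control 1 (153) or 2 (135). A fit of the 8 control livers alone, which has 6 residual degrees of freedom, called 21 genes higher and 39 lower, 56 of them among the 262. The fit of the knockout livers alone, with as many degrees of freedom, called 2829 genes between diets, against 1516 in the main fit. The p-values of the main fit in control livers thus rest in part on the spread of the knockout livers. Whether that spread differs between genotypes was not tested. A set of 79 genes, 27 higher and 52 lower, was called in every one of the 16 leave-one-out fits, and 43 of these were also called in the fit of 8 livers. Genes of this set are described below as called in every leave-one-out fit, and the fit of the 8 control livers is called the 8-liver fit. Of the 77 called genes named in the text, 10 lost their call when the share of unspliced RNA was a covariate (Plin4, Sema5b, Tgm1, Slc25a1, Igfbp1, Pgd, Inhbe, Sult1e1, Rpl23 and Neat1; edgeR adjusted p between 0.0512 and 0.515). With limma-voom 20 lost it, at an adjusted p up to 0.356: Ppp1r3g (adjusted p = 0.171), Ugt2b38, Cspg5, Hao2, Cyp2b13, Chrna4, Slc22a29, Cd36, Lss, Sqle, Firre, Sema5b, Wfdc2, Plin4, Igfbp1, Pgd, Sort1, Gaa, Neat1 and Sult1e1. With limma-voom under quality weights 5 lost it: Plin4, Wfdc2, Chrna4, Ppp1r3g and Sult1e1 (adjusted p between 0.0839 and 0.2).

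Some of the largest changes were in genes that differ between the sexes: female-biased genes were higher on the high-fat diet and male-biased genes lower. Of 23 male-biased genes tested, 7 fell and 0 rose, with a median log2 fold change of -0.97; 15 of the 23 did not overlap between groups. Of 13 female-biased genes that passed the filter, out of 20 listed, 5 rose and 0 fell, with a median of 1.27. Of the 13, 10 had a positive and 3 a negative fold change, and 5 did not overlap between groups. A gene silent on chow could pass the filter only through other livers, and could then only rise. Cyp2b13, at 0 counts in every chow control, is such a gene. Cyp2b9, Hao2 and Sult1e1, whose levels are given below, were also all but silent on chow. Of the called genes on this list, only Cyp17a1 was not. The filter thus set the direction of most calls on this list, and in part that of its median. Over all genes tested, 0.885% fell, 0.941% rose and the median was 0.01. The groups did not overlap for 4.01% of all genes in the downward and 3.21% in the upward direction. Both lists were chosen with earlier results of these data known, so their shares beside those of all genes are not an independent test. All 8 control livers were male by sex-linked genes, with 0 to 2 counts of Xist and 973 to 2482 counts of the Y-linked Ddx3y. Both medians kept their sign under every setting tried, between -1.33 and -0.84 for male-biased and between 0.81 and 1.79 for female-biased genes.

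Cyp2b9, a cytochrome P450 that is normally a female gene, had the largest change of any named gene. Levels of Cyp2b9 were 37.2, 136, 158 and 137 CPM in high-fat controls 1 to 4, against 0, 0.0762, 0.103 and 0.316 CPM in chow controls 1 to 4. It was all but silent on chow, and every high-fat liver was above every chow liver (log2 fold change 9.61 with an SE of 0.71, adjusted p = 1.08e-06 by edgeR). Its neighbour Cyp2b13 had 2, 86, 31 and 85 counts in high-fat controls 1 to 4 and 0 counts in each chow control. With the chow livers set at a floor of 3 counts each, the mean of the high-fat controls was at least 13.1-fold higher (edgeR adjusted p = 0.0158); high-fat control 1 was itself below that floor, and the call was lost without chow control 4 (adjusted p = 0.0524). Reads can be split between these near-identical neighbours, so the share of each is uncertain. Cyp2b13 was not called in the 8-liver fit (adjusted p = 0.0687). Nr1i3, which encodes the nuclear receptor CAR, the textbook activator of Cyp2b genes, was also higher. For Nr1i3, the values were 305, 178, 225 and 219.9 CPM in high-fat controls 1 to 4, against 86.5, 83.9, 113 and 83.6 CPM in chow controls 1 to 4. No liver overlapped (log2 fold change 1.34 with an SE of 0.24, adjusted p = 0.00909 by edgeR). Cyp2b10, a related gene on the list of xenobiotic cytochromes, was tested and not called. Whether CAR had a part in these changes was not tested.

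Among the other female-biased genes, Cyp17a1, the steroid 17-hydroxylase and 17,20-lyase, was higher in every high-fat liver. The level of Cyp17a1 was 146, 40.8, 99.5 and 19.8 CPM in high-fat controls 1 to 4, against 6.43, 8.15, 18 and 8.07 CPM in chow controls 1 to 4. The lowest high-fat liver, control 4, was still just above the highest chow liver, control 3 (log2 fold change 2.90 with an SE of 0.51, adjusted p = 0.00856 by edgeR). Hao2, a peroxisomal hydroxy-acid oxidase, was close to the detection limit on chow. Hao2 stood at 0.407, 1.66, 6.23 and 3.85 CPM in high-fat controls 1 to 4, against 0, 0.228, 0.154 and 0 CPM in chow controls 1 to 4. All high-fat livers were above all chow livers, by a factor that rests on few chow counts (log2 fold change 4.98 with an SE of 0.95, adjusted p = 0.0119 by edgeR). Sult1e1, the oestrogen sulfotransferase, was carried by 1 liver. Sult1e1 was at 20.2, 0.701, 1.22 and 0.300 CPM in high-fat controls 1 to 4, against 0, 0.228, 0.205 and 0.180 CPM in chow controls 1 to 4. High-fat control 1 was far above the rest (log2 fold change 5.08 with an SE of 1.15, adjusted p = 0.0300 by edgeR); without it the log2 fold change was 2.16 and the call was lost, as it was without any 1 of the chow controls (adjusted p up to 0.196). In the 8-liver fit, none of these 3 genes was called (adjusted p = 0.0559 for Cyp17a1, 0.0581 for Hao2 and 0.163 for Sult1e1).

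On the male-biased side, Serpina1e, a member of the alpha-1-antitrypsin family and one of the most abundant transcripts of male liver, was lower in all 4 high-fat livers. Levels of Serpina1e were 1213, 512, 143 and 223 CPM in high-fat controls 1 to 4, against 4028, 7763, 6782 and 3473 CPM in chow controls 1 to 4. The groups were far apart, and high-fat control 3 was the lowest (log2 fold change -3.40 with an SE of 0.62, adjusted p = 0.00909 by edgeR). Ugt2b38, a steroid-conjugating glucuronosyltransferase, fell further still. For Ugt2b38, the values were 0.136, 1.53, 0.948 and 1.0 CPM in high-fat controls 1 to 4, against 16.7, 20.3, 41.8 and 5.46 CPM in chow controls 1 to 4. Only chow control 4 came near the high-fat livers (log2 fold change -4.52 with an SE of 0.78, adjusted p = 0.00752 by edgeR). Cyp4a12a, the fatty acid hydroxylase that makes 20-HETE in male mice, and its neighbour Cyp4a12b fell together. The level of Cyp4a12a was 61.9, 40.9, 53.4 and 83.9 CPM in high-fat controls 1 to 4, against 204, 151, 218 and 233 CPM in chow controls 1 to 4. Its log2 fold change was -1.74 (edgeR adjusted p = 0.00460), and that of Cyp4a12b was -2.57 (edgeR adjusted p = 0.0158). The complement component C6 (-1.41) and the proteoglycan Cspg5 (-2.75) were lower as well, and these 6 genes were called in every leave-one-out fit. Mup20, a major urinary protein that acts as a male pheromone, was at 2366, 2372, 3232 and 1284 CPM in high-fat controls 1 to 4, against 4056, 5336, 4597 and 3452 CPM in chow controls 1 to 4. The groups were apart by a small margin (log2 fold change -0.91 with an SE of 0.21, adjusted p = 0.0352 by edgeR), and the call was lost in 8 of 16 fits, those without any 1 chow control, high-fat control 1 or 2, or high-fat knockout 2 or 4 (adjusted p up to 0.117). The 8-liver fit did not call C6 or Mup20 (adjusted p = 0.0715 and 0.211). Srd5a1, the steroid 5-alpha-reductase, is not on the list and was singled out after its values were seen. Srd5a1 stood at 49.3, 54.5, 38.2 and 52 CPM in high-fat controls 1 to 4, against 106, 104, 138 and 107 CPM in chow controls 1 to 4. The groups were separate and tight (log2 fold change -1.23 with an SE of 0.15, adjusted p = 0.000656 by edgeR).

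**Figure D1:**
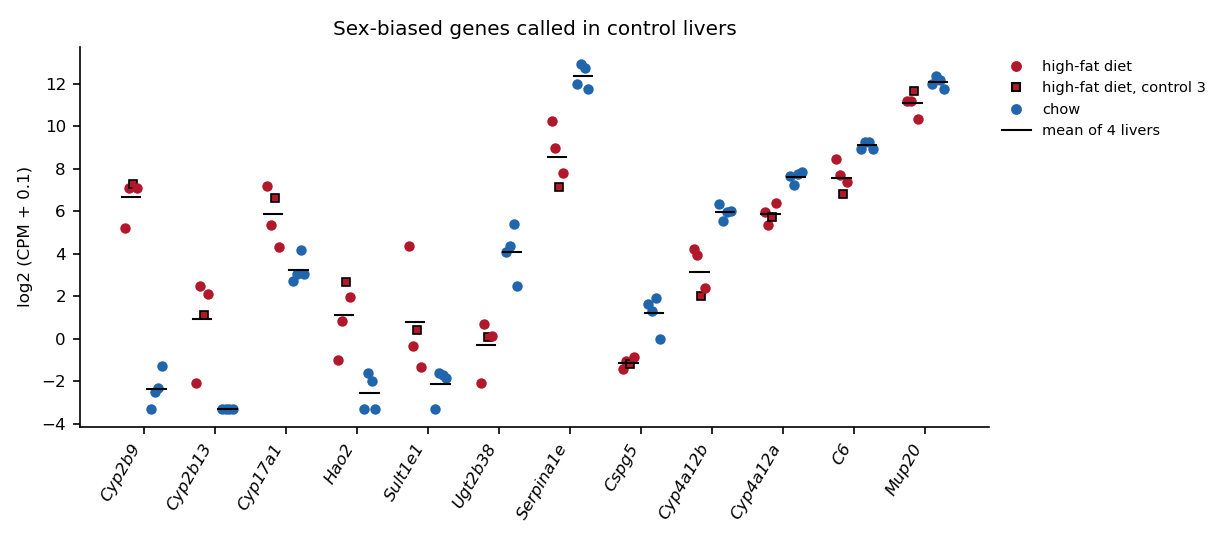
Points give log2 (CPM + 0.1) in each control liver for the 12 sex-biased genes called, high-fat diet left of chow for each gene; black bars are means of 4 livers, and the outlined square is high-fat control 3. The 5 female-biased genes at the left are higher on the high-fat diet and the 7 male-biased genes at the right lower; Sult1e1 shows 1 high liver.

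Other xenobiotic-handling P450s moved in both directions. Of 32 genes on that list, 4 rose and 2 fell, with a median of -0.04. Cyp2c38 rose (1.52, edgeR adjusted p = 0.0101) and Cyp2c67 fell (-1.09, edgeR adjusted p = 0.00493), both in every leave-one-out fit. Cyp2c38 was at 81.5, 83, 90.0 and 50.5 CPM in high-fat controls 1 to 4, against 21, 22, 25.7 and 37.4 CPM in chow controls 1 to 4. Levels of Cyp2c67 were 139.9, 102, 176 and 121 CPM in high-fat controls 1 to 4, against 271, 242, 307 and 324 CPM in chow controls 1 to 4. Both genes were separate between groups, in opposite directions. The epoxygenase Cyp2c23 also fell. For Cyp2c23, the values were 103, 194, 154 and 186 CPM in high-fat controls 1 to 4, against 389.6, 429.5, 429 and 378 CPM in chow controls 1 to 4. All high-fat livers were below all chow livers (log2 fold change -1.35 with an SE of 0.21, adjusted p = 0.00493 by edgeR). Cyp3a59 rose (2.03, edgeR adjusted p = 0.0238), as did Cyp2c39 (1.65, edgeR adjusted p = 0.0342). Cyp3a59 was not called without any 1 chow control (adjusted p up to 0.0815). Cyp2c39 was not called without any 1 chow control, high-fat control 1 or 2, or high-fat knockout 2 (adjusted p up to 0.0995). In the 8-liver fit neither of these was called (adjusted p = 0.0581 and 0.0530). Nr1i3 is the sixth called gene of the list. These P450 genes belong to clusters of close paralogs, and no source used here says how multiply mapped reads were counted.

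Sterol synthesis genes shared a direction, and a minority of them passed the test. All 25 genes on the cholesterol synthesis and uptake list had a negative fold change on the high-fat diet, with a median of -0.81; 6 were called lower, 0 higher, and 20 had an unadjusted p under 0.05. Over all genes tested the median was 0.01, 0.885% were called lower and 17.1% had an unadjusted p under 0.05 in either direction. The median stayed between -1.0 and -0.54 in every alternative fit and was -0.97 without high-fat control 3. Called genes lay at several steps of the pathway: Pmvk is a mevalonate-pathway kinase, Sqle and Lss epoxidise and cyclise squalene, and Nsdhl removes a methyl carbon from the sterol ring.

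The level of Pmvk was 26.2, 20.9, 39.3 and 30.2 CPM in high-fat controls 1 to 4, against 92.5, 80.6, 44.6 and 116 CPM in chow controls 1 to 4. Chow control 3 was the lowest chow liver and high-fat control 3 the highest high-fat liver, and they did not overlap (log2 fold change -1.52 with an SE of 0.27, adjusted p = 0.00909 by edgeR); this gene was called in every leave-one-out fit. The calls for Nsdhl (-1.31, edgeR adjusted p = 0.0236), Lss (-1.38, edgeR adjusted p = 0.0352) and Sqle (-1.49, edgeR adjusted p = 0.0471) were nearer the threshold. In Sqle high-fat control 1 overlapped the chow range.

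These sterol calls leaned on single livers more than the list median did. Without chow control 4, the highest chow liver for Lss and Nsdhl, the calls of Lss, Nsdhl and Sqle were lost. Nsdhl was also lost without chow control 2 or high-fat control 2 or 4 (adjusted p up to 0.0941). Lss was also lost without chow control 1, high-fat control 1, 2 or 4, or high-fat knockout 2 (adjusted p up to 0.124). Sqle held only when chow control 3, high-fat control 1 or 3, or chow knockout 1 was left out, and its adjusted p otherwise reached 0.142. In the 8-liver fit Pmvk was not called (adjusted p = 0.0530), nor were Nsdhl, Lss or Sqle (0.0995, 0.163 and 0.175).

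Hmgcs1, which acts early in the pathway, had the widest range on chow. Levels of Hmgcs1 were 499.6, 285, 473 and 487 CPM in high-fat controls 1 to 4, against 922, 559, 168 and 2039 CPM in chow controls 1 to 4. Chow control 3 was below every high-fat liver, and the gene was not called (log2 fold change -1.08 with an SE of 0.47, adjusted p = 0.246 by edgeR).

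Fatty acid synthesis enzymes shared the direction in part. Of 23 genes on the list, 4 fell and 0 rose, the median was -0.54 (between -0.66 and -0.42 under all settings) and 19 had a negative fold change. Acacb, the mitochondrial acetyl-CoA carboxylase whose product blocks fatty acid import into mitochondria, fell the most of the 4. For Acacb, the values were 43.6, 66.6, 64.4 and 46.1 CPM in high-fat controls 1 to 4, against 266, 248, 168 and 291 CPM in chow controls 1 to 4. The highest high-fat liver was well below the lowest chow liver (log2 fold change -2.14 with an SE of 0.32, adjusted p = 0.00493 by edgeR). Acss2, which turns acetate into acetyl-CoA, followed. The level of Acss2 was 148, 127, 225 and 145 CPM in high-fat controls 1 to 4, against 526, 493, 272 and 777 CPM in chow controls 1 to 4. The groups did not overlap, and both genes were called in every leave-one-out fit (log2 fold change -1.68 with an SE of 0.30, adjusted p = 0.00875 by edgeR). Acly, which makes cytosolic acetyl-CoA from citrate, was at 303, 457, 380.3 and 349 CPM in high-fat controls 1 to 4, against 779, 1002, 616 and 1042 CPM in chow controls 1 to 4. Its groups were separate (log2 fold change -1.21 with an SE of 0.26, adjusted p = 0.0224 by edgeR); the call was lost without chow control 2 or 4 or high-fat control 1 (adjusted p up to 0.0796). Slc25a1, the mitochondrial citrate carrier, was close to the threshold (log2 fold change -0.63 with an SE of 0.15, adjusted p = 0.0423 by edgeR) and stayed called only when high-fat control 3, high-fat knockout 3 or 4, or chow knockout 1 or 2 was left out (adjusted p otherwise up to 0.123). Srebf1, the gene for the SREBP-1 factor, had 355, 639, 373 and 548 CPM in high-fat controls 1 to 4, against 295, 568, 691 and 408 CPM in chow controls 1 to 4. In the 8-liver fit, Slc25a1 was not called (adjusted p = 0.178). The Srebf1 groups overlapped fully, and its fold change lay on both sides of 0 across settings (log2 fold change -0.04 with an SE of 0.23, adjusted p = 0.964 by edgeR).

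The binding motif of SREBP, taken here as TCACNCCAC on either strand, was found in the promoter (250 bases before to 50 after the gene start, RefSeq, GRCm38.p6) of 1 of 17 cholesterol genes and 1 of 19 fatty acid synthesis genes that matched, and in 1.44% of all 27025 promoters. Both matches are shown because they belong to genes of the pathways that were lower; capitals mark the motif. Hmgcs1 lies on the plus strand at chr13:119690188-119690247, and Mlxipl, the gene of the carbohydrate-sensing factor ChREBP, on the plus strand at chr5:135106729-135106788.
Hmgcs1: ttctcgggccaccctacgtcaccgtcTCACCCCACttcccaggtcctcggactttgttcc
Mlxipl: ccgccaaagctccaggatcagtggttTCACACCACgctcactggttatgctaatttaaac
Neither gene was called in control livers: Hmgcs1 had a log2 fold change of -1.08 and Mlxipl of 0.54 (edgeR adjusted p = 0.246 and 0.358).

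Genes for taking up and storing fatty acids included some of the largest changes, in both directions. Of 17 uptake and activation genes, 2 rose and 2 fell, with a median of 0.01. Vldlr, the receptor for triglyceride-rich lipoproteins, rose. Vldlr stood at 6.51, 9.94, 10.9 and 12.1 CPM in high-fat controls 1 to 4, against 1.8, 1.14, 2.05 and 3.16 CPM in chow controls 1 to 4. All high-fat livers were above all chow livers (log2 fold change 2.25 with an SE of 0.44, adjusted p = 0.0143 by edgeR); the call was lost only without chow control 2, at an adjusted p of 0.0561. Cd36, the fatty acid translocase, was higher in every high-fat liver. Cd36 was at 137, 198, 306 and 212 CPM in high-fat controls 1 to 4, against 68, 28.8, 63.4 and 94.9 CPM in chow controls 1 to 4. The margin was narrow relative to the spread (log2 fold change 1.74 with an SE of 0.43, adjusted p = 0.0447 by edgeR), and the call held only when high-fat control 1 or 3, high-fat knockout 1 or 3, or chow knockout 1 was left out (adjusted p otherwise up to 0.126). Fabp5, a cytosolic fatty acid binding protein, fell. Levels of Fabp5 were 1.42, 2.42, 5.75 and 3.15 CPM in high-fat controls 1 to 4, against 63.4, 43, 24.7 and 34.9 CPM in chow controls 1 to 4. The groups were more than 4-fold apart at their nearest livers (log2 fold change -3.70 with an SE of 0.59, adjusted p = 0.00557 by edgeR). Acsl4, the acyl-CoA synthetase that prefers arachidonate, fell by a smaller factor. For Acsl4, the values were 62.3, 66.2, 92.5 and 66.7 CPM in high-fat controls 1 to 4, against 121, 121, 125 and 139 CPM in chow controls 1 to 4. High-fat control 3 was the highest of its group and still below every chow liver (log2 fold change -0.81 with an SE of 0.13, adjusted p = 0.00557 by edgeR). Fabp5 and Acsl4 were called in every leave-one-out fit, whereas the 8-liver fit did not call Acsl4 (adjusted p = 0.0687) or Cd36 (0.0558).

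Among 23 lipid droplet and triglyceride genes, 2 rose and 0 fell, and the median was -0.01. Plin4 coats lipid droplets. The level of Plin4 was 26, 14.8, 5.55 and 16.5 CPM in high-fat controls 1 to 4, against 2.91, 3.2, 4.57 and 0.631 CPM in chow controls 1 to 4. High-fat control 3 was only just above the highest chow liver (log2 fold change 2.49 with an SE of 0.61, adjusted p = 0.0439 by edgeR). Mgll encodes monoacylglycerol lipase. Mgll stood at 186, 250.4, 272 and 250.1 CPM in high-fat controls 1 to 4, against 152, 139, 171 and 143 CPM in chow controls 1 to 4. Its groups were separate by a small margin (log2 fold change 0.66 with an SE of 0.16, adjusted p = 0.0415 by edgeR). Neither call was firm: Plin4 held only when high-fat control 3, high-fat knockout 1 or 3, or chow knockout 1 was left out, and Mgll only when high-fat control 1 or 3, high-fat knockout 1 or 3, or chow knockout 1 or 2 was left out (adjusted p otherwise up to 0.120 and 0.125). Nor were they called in the 8-liver fit (adjusted p = 0.0739 and 0.112). Cidec, a droplet-fusing protein often used as a mark of fatty liver, had 2.03, 7.58, 7.11 and 1.75 CPM in high-fat controls 1 to 4, against 0.899, 0.685, 1.39 and 2.03 CPM in chow controls 1 to 4. The ranges overlapped and it was not called (log2 fold change 1.82 with an SE of 0.82, adjusted p = 0.263 by edgeR).

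**Figure D2:**
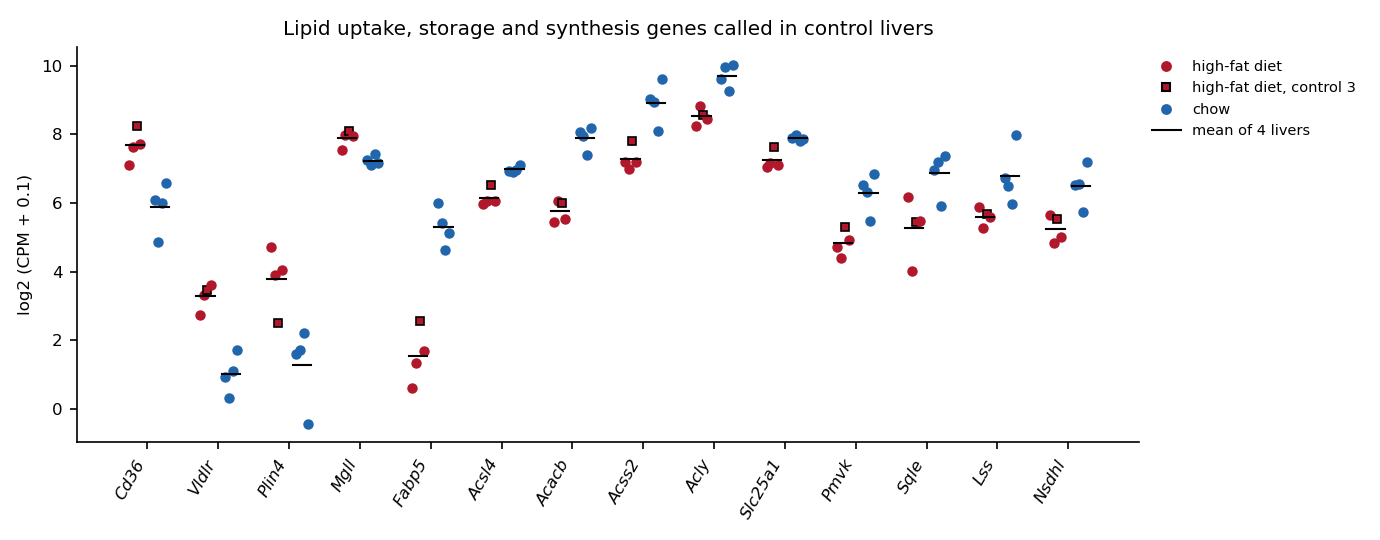
Points give log2 (CPM + 0.1) in each control liver for 14 called genes of lipid uptake, storage and synthesis, high-fat diet left of chow for each gene; black bars are means of 4 livers and the outlined square is high-fat control 3. The uptake and storage genes Cd36, Vldlr, Plin4 and Mgll are higher on the high-fat diet and the other 10 lower; Sqle is the one gene in which the groups overlap.

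Fat-burning genes changed little. Of 29 fatty acid oxidation and ketogenesis genes, 0 were called by edgeR and 5 had an unadjusted p under 0.05, all higher; 25 of the 29 had a positive fold change and the median was 0.25, between 0.05 and 0.46 under all settings. Of 16 other PPAR alpha targets, 0 were called and 3 had an unadjusted p under 0.05. The share of all genes tested with an unadjusted p under 0.05 was 17.1% in either direction. Fgf21, a fasting hormone among them, had 4.54, 2.8, 4.81 and 2.55 CPM in high-fat controls 1 to 4, against 1.66, 1.98, 1.28 and 0.857 CPM in chow controls 1 to 4; the groups were separate and the call was not made (log2 fold change 1.36 with an SE of 0.58, adjusted p = 0.233 by edgeR). The direct repeat to which PPARs bind (the half-site AGGTCA in 2 copies with any 1 base between them, on either strand) was in 0 of 24 oxidation and 0 of 12 PPAR alpha promoters and in 0.0481% of all promoters. Exact matches are so rare that 0 was all but fixed for lists this small, so PPAR binding was not tested. Among 42 nuclear genes of the respiratory chain 0 were called, with a median of 0.12.

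Of 26 lipoprotein genes, 2 fell: Apom, the carrier of sphingosine 1-phosphate on HDL (-0.89, edgeR adjusted p = 0.0238), and Sort1, a sorting receptor for apolipoprotein B particles (-0.97, edgeR adjusted p = 0.0468). Apom was at 131, 121, 221 and 169 CPM in high-fat controls 1 to 4, against 284, 352, 322 and 236 CPM in chow controls 1 to 4. The Apom groups did not overlap. Its call was lost without chow control 2 or 3 or high-fat control 1 or 2 (adjusted p up to 0.0819), and that of Sort1 in 12 of 16 leave-one-out fits, all but those that left out chow control 3, high-fat control 3 or 4, or chow knockout 1 (adjusted p up to 0.153). Slco1a4, an organic anion and bile acid transporter, was the single call of 22 bile acid genes. Levels of Slco1a4 were 57.8, 58, 154 and 102 CPM in high-fat controls 1 to 4, against 28.6, 29.3, 22.8 and 46.7 CPM in chow controls 1 to 4. All high-fat livers were above all chow livers (log2 fold change 1.54 with an SE of 0.34, adjusted p = 0.0263 by edgeR), and the call was lost without chow control 1, 2 or 3 (adjusted p up to 0.0818). The 8-liver fit called none of the 3 (adjusted p = 0.136 for Apom, 0.214 for Sort1 and 0.0745 for Slco1a4).

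Sphingolipid enzymes, the pathway to which Degs1 belongs, were close to level. Of 27 tested, 0 were called by edgeR and 3 had an unadjusted p under 0.05, with a median of -0.03. Among all genes tested, 17.1% had an unadjusted p under 0.05. Degs1 itself was not called on the high-fat diet (log2 fold change -0.21 with an SE of 0.16, adjusted p = 0.577 by edgeR). Ugcg, which adds glucose to ceramide, had 16.1, 19.5, 18.1 and 23 CPM in high-fat controls 1 to 4, against 29.9, 20.3, 26.8 and 32.5 CPM in chow controls 1 to 4. The ranges overlapped (log2 fold change -0.51 with an SE of 0.16, adjusted p = 0.0976 by edgeR).

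Several genes that insulin and feeding regulate in hepatocytes were lower. Ppp1r3g, a subunit that brings protein phosphatase 1 to glycogen after a meal, was nearly undetectable on the high-fat diet. For Ppp1r3g, the values were 0, 0.573, 0.406 and 0 CPM in high-fat controls 1 to 4, against 16.5, 6.55, 1.18 and 12.6 CPM in chow controls 1 to 4. Chow livers varied more than 10-fold among themselves, with control 3 nearest to the high-fat livers (log2 fold change -5.25 with an SE of 0.87, adjusted p = 0.00614 by edgeR). Irs2, the insulin receptor substrate that rises with fasting, also fell. The level of Irs2 was 15.2, 17.1, 8.05 and 10.6 CPM in high-fat controls 1 to 4, against 72.7, 22.5, 28.3 and 54.7 CPM in chow controls 1 to 4. The groups were separate (log2 fold change -1.81 with an SE of 0.34, adjusted p = 0.0119 by edgeR). Gckr, which holds glucokinase in the nucleus, rose by less. Gckr stood at 246, 172, 205 and 164 CPM in high-fat controls 1 to 4, against 113, 116, 130.3 and 129 CPM in chow controls 1 to 4. No liver overlapped (log2 fold change 0.69 with an SE of 0.13, adjusted p = 0.0126 by edgeR). These 3 genes were called in every leave-one-out fit; in the 8-liver fit Ppp1r3g was called (adjusted p = 0.0456) and Irs2 and Gckr were not (0.0687 and 0.101).

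The wider glucose lists moved little. Of 19 glucose use and glycogen genes, 1 rose and 2 fell, the second lower one being Pgd of the pentose phosphate pathway (-0.79, edgeR adjusted p = 0.0401). Of 15 gluconeogenesis and fasting genes, 2 fell, Irs2 and Igfbp1, and the medians of both lists were -0.09 and -0.11. Igfbp1, a secreted binding protein that insulin represses, had 18.1, 8.85, 25 and 38 CPM in high-fat controls 1 to 4, against 220.4, 91.3, 26.8 and 66.7 CPM in chow controls 1 to 4. High-fat control 4 lay inside the chow range (log2 fold change -2.17 with an SE of 0.54, adjusted p = 0.0484 by edgeR). Igfbp1 held only when chow control 3, high-fat control 3 or 4, or chow knockout 1 was left out (adjusted p otherwise up to 0.146). Pgd was lost without chow control 1, 2 or 4, high-fat control 1, 2 or 4, or high-fat knockout 1 or 4 (adjusted p up to 0.130). Of 20 insulin signalling genes, 0 were called by edgeR and 1 had an unadjusted p under 0.05, against 17.1% of all genes tested. Inhbe, a hepatokine of the activin family, rose (0.97, edgeR adjusted p = 0.0463). That call was lost in 11 of 16 leave-one-out fits, all but those without chow control 3, high-fat control 3 or chow knockout 1, 2 or 4 (adjusted p up to 0.135). Pgd, Igfbp1 and Inhbe were not called in the 8-liver fit (adjusted p = 0.106, 0.163 and 0.137).

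Amino acid and detoxification enzymes gave a few large decreases. Asns, asparagine synthetase, was the only one of 18 integrated stress response genes called. Asns was at 0.339, 0.191, 0.609 and 0.500 CPM in high-fat controls 1 to 4, against 3.11, 4.11, 4.21 and 8.25 CPM in chow controls 1 to 4. Every high-fat liver was below 1 CPM and every chow liver above 3 CPM (log2 fold change -3.56 with an SE of 0.61, adjusted p = 0.00752 by edgeR). Csad, which makes the taurine precursor hypotaurine, was the one call of 17 sulfur and one-carbon genes. Levels of Csad were 54.1, 44, 39.1 and 35.9 CPM in high-fat controls 1 to 4, against 166, 341, 162 and 97.8 CPM in chow controls 1 to 4. The groups were separate and chow control 2 was the highest (log2 fold change -2.15 with an SE of 0.46, adjusted p = 0.0228 by edgeR); the call was lost without chow control 2 or high-fat control 2 or 4 (adjusted p up to 0.0840). Acnat2, which joins acyl groups to amino acids in peroxisomes, rose. For Acnat2, the values were 83.6, 68.9, 72.4 and 51.6 CPM in high-fat controls 1 to 4, against 12, 15.8, 13.9 and 12.9 CPM in chow controls 1 to 4. The lowest high-fat liver was above every chow liver by a wide margin (log2 fold change 2.34 with an SE of 0.23, adjusted p = 6.56e-05 by edgeR). Of 24 Nrf2 and glutathione genes, 2 fell: Gstm1 and Gstm3, glutathione S-transferases. The level of Gstm1 was 331, 534, 489 and 389 CPM in high-fat controls 1 to 4, against 841, 1233, 955 and 769 CPM in chow controls 1 to 4. The groups did not overlap (log2 fold change -1.12 with an SE of 0.19, adjusted p = 0.00614 by edgeR). Gstm3 had a log2 fold change of -1.53 (edgeR adjusted p = 0.0162) and was not called without chow control 2 or 4 or high-fat control 1 (adjusted p up to 0.0603). Rdh11, a retinal reductase, was the one call of 13 retinoid and vitamin genes. Rdh11 stood at 47.8, 34, 84.4 and 52.6 CPM in high-fat controls 1 to 4, against 170.4, 168, 91.3 and 282 CPM in chow controls 1 to 4. High-fat control 3 came closest to chow control 3 (log2 fold change -1.70 with an SE of 0.32, adjusted p = 0.0101 by edgeR); Asns, Acnat2, Gstm1 and Rdh11 were called in every leave-one-out fit. Gstm1, Gstm3 and Rdh11 were not called in the 8-liver fit (adjusted p = 0.0530, 0.0505 and 0.0687).

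Among listed genes of protein secretion and of secreted plasma proteins, few passed the test. All 24 endoplasmic reticulum chaperone and unfolded protein response genes had a negative fold change, with a median of -0.35 (between -0.42 and -0.18 under all settings), but 1 was called: Sec61a1, a subunit of the translocation channel (-0.62, edgeR adjusted p = 0.0158), which was lost without chow control 2 or 4 (adjusted p up to 0.0575). Of 27 complement and coagulation genes, 2 fell and 23 had a negative fold change, with a median of -0.29. The 2 are C8a and C8b, which encode chains of the membrane attack complex and lie next to each other on chromosome 4. The complement genes C6 and C1ra are not on this list and were also called lower, as given in other paragraphs. C8a was at 622, 586, 367 and 827 CPM in high-fat controls 1 to 4, against 1096, 1188, 1471 and 1487 CPM in chow controls 1 to 4. Levels of C8b were 220.2, 151, 224 and 233 CPM in high-fat controls 1 to 4, against 471, 504, 718 and 516 CPM in chow controls 1 to 4. Both genes were lower in every high-fat liver (C8a -1.13, edgeR adjusted p = 0.00909; C8b -1.42, edgeR adjusted p = 0.0101), in every leave-one-out fit. Of 23 acute phase genes Fga was called lower (-0.65, edgeR adjusted p = 0.0224), a call lost without chow control 2 or 4 or high-fat control 1 or 2 (adjusted p up to 0.0794). Of the 4 called genes on these lists, the 8-liver fit called C8b (adjusted p = 0.0156) and not C8a (0.0715), Sec61a1 (0.137) or Fga (0.154). Alb, the most abundant transcript, was not called (-0.44, edgeR adjusted p = 0.165).

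Among 46 cytosolic ribosomal protein genes, 42 had a negative fold change with a median of -0.25, and the 2 called were Rpl4 (-0.59, edgeR adjusted p = 0.0263) and Rpl23 (-0.56, edgeR adjusted p = 0.0463). The median was -0.55 without high-fat control 3 and 0.06 once that share of unspliced RNA was a covariate, so its sign depended on that term. Rpl4 was lost without chow control 2, 3 or 4 or high-fat control 1 or 2, and Rpl23 held only without chow knockout 1 or 2 or high-fat control 3 or 4 (adjusted p up to 0.0971 and 0.146). Single calls near the threshold were Gaa, the lysosomal glucosidase, of 24 lysosome and autophagy genes (-0.54, edgeR adjusted p = 0.0471; held in 2 of 16 leave-one-out fits, those without high-fat control 3 or chow knockout 1), and Tapbp, which loads MHC class I, of 18 antigen presentation genes (-0.54, edgeR adjusted p = 0.0305; lost without any 1 chow control or high-fat control 1 or 2). The 8-liver fit called none of these 4 genes (adjusted p = 0.160 for Rpl4, 0.186 for Rpl23, 0.163 for Gaa and 0.132 for Tapbp).

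Genes of the cell surface and of signalling made up most of the remaining large decreases. Adgrf1, an adhesion G protein-coupled receptor, fell the most of these. For Adgrf1, the values were 0.610, 1.02, 2.64 and 1.75 CPM in high-fat controls 1 to 4, against 36.5, 28.2, 31.7 and 15.7 CPM in chow controls 1 to 4. The chow range began well above the highest high-fat liver (log2 fold change -4.20 with an SE of 0.69, adjusted p = 0.00587 by edgeR). Prss8, the membrane protease prostasin, was nearly as clear. The level of Prss8 was 1.63, 1.27, 2.91 and 2.2 CPM in high-fat controls 1 to 4, against 9.55, 12.3, 8.32 and 18.3 CPM in chow controls 1 to 4. The groups did not overlap (log2 fold change -2.60 with an SE of 0.32, adjusted p = 0.000774 by edgeR). The adhesion molecules Cadm4 and Cdh1 were both lower. Cdh1 stood at 26.2, 32.5, 30.5 and 38.5 CPM in high-fat controls 1 to 4, against 74.5, 86.5, 52.1 and 65 CPM in chow controls 1 to 4. E-cadherin, the product of Cdh1 and a periportal marker, had the sole call among 18 urea cycle and periportal genes (log2 fold change -1.12 with an SE of 0.17, adjusted p = 0.00493 by edgeR). Cadm4 had a log2 fold change of -1.88 (edgeR adjusted p = 0.00493). These 4 genes were called in every leave-one-out fit. Chrna4, a nicotinic receptor subunit (-3.65, edgeR adjusted p = 0.0153), was lost without chow control 4 (adjusted p = 0.0559). Tgm1, a transglutaminase (-2.0, edgeR adjusted p = 0.0170), was lost without chow control 3 or high-fat control 1 or 2 (adjusted p up to 0.0668); without chow control 3 its log2 fold change was -1.38. Of these 6 genes, Tgm1 alone was not called in the 8-liver fit (adjusted p = 0.0737).

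Several further genes called in every leave-one-out fit, singled out after their values were seen, concern transport and secreted factors. Leap2 encodes a liver peptide that antagonises the ghrelin receptor. Leap2 was at 70.1, 47.3, 156 and 73.8 CPM in high-fat controls 1 to 4, against 40.5, 32.9, 20.0 and 16.1 CPM in chow controls 1 to 4. The groups were separate, with high-fat control 3 the highest (log2 fold change 1.67 with an SE of 0.31, adjusted p = 0.00935 by edgeR). Slc22a29, an organic anion transporter of the mouse, rose from a low level (log2 fold change 4.43 with an SE of 0.67, adjusted p = 0.00493 by edgeR), and Gpc1, the heparan sulfate proteoglycan glypican 1, also rose (log2 fold change 1.37 with an SE of 0.22, adjusted p = 0.00560 by edgeR). The prostaglandin transporter Slco2a1 fell. Levels of Slco2a1 were 29.3, 26.4, 20.3 and 22.8 CPM in high-fat controls 1 to 4, against 67.4, 87.1, 63.2 and 58.5 CPM in chow controls 1 to 4. The groups did not overlap (log2 fold change -1.48 with an SE of 0.22, adjusted p = 0.00460 by edgeR). Slc39a4, an intestinal-type zinc importer (-1.54, edgeR adjusted p = 0.0157), Cd276, an immune checkpoint protein of the B7 family (-2.33, edgeR adjusted p = 0.00560), Cyp4f14, which inactivates leukotriene B4 (-0.88, edgeR adjusted p = 0.0145), and C1ra, a protease that starts the classical complement pathway (-0.76, edgeR adjusted p = 0.00909), fell too. Ugt1a9 fell (-1.72, edgeR adjusted p = 0.00875), but it shares its last exons with other Ugt1a genes, so its own share is uncertain. Of these 9 genes, Leap2, Slc39a4 and C1ra were not called in the 8-liver fit (adjusted p = 0.0972, 0.0783 and 0.0687).

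**Figure D3:**
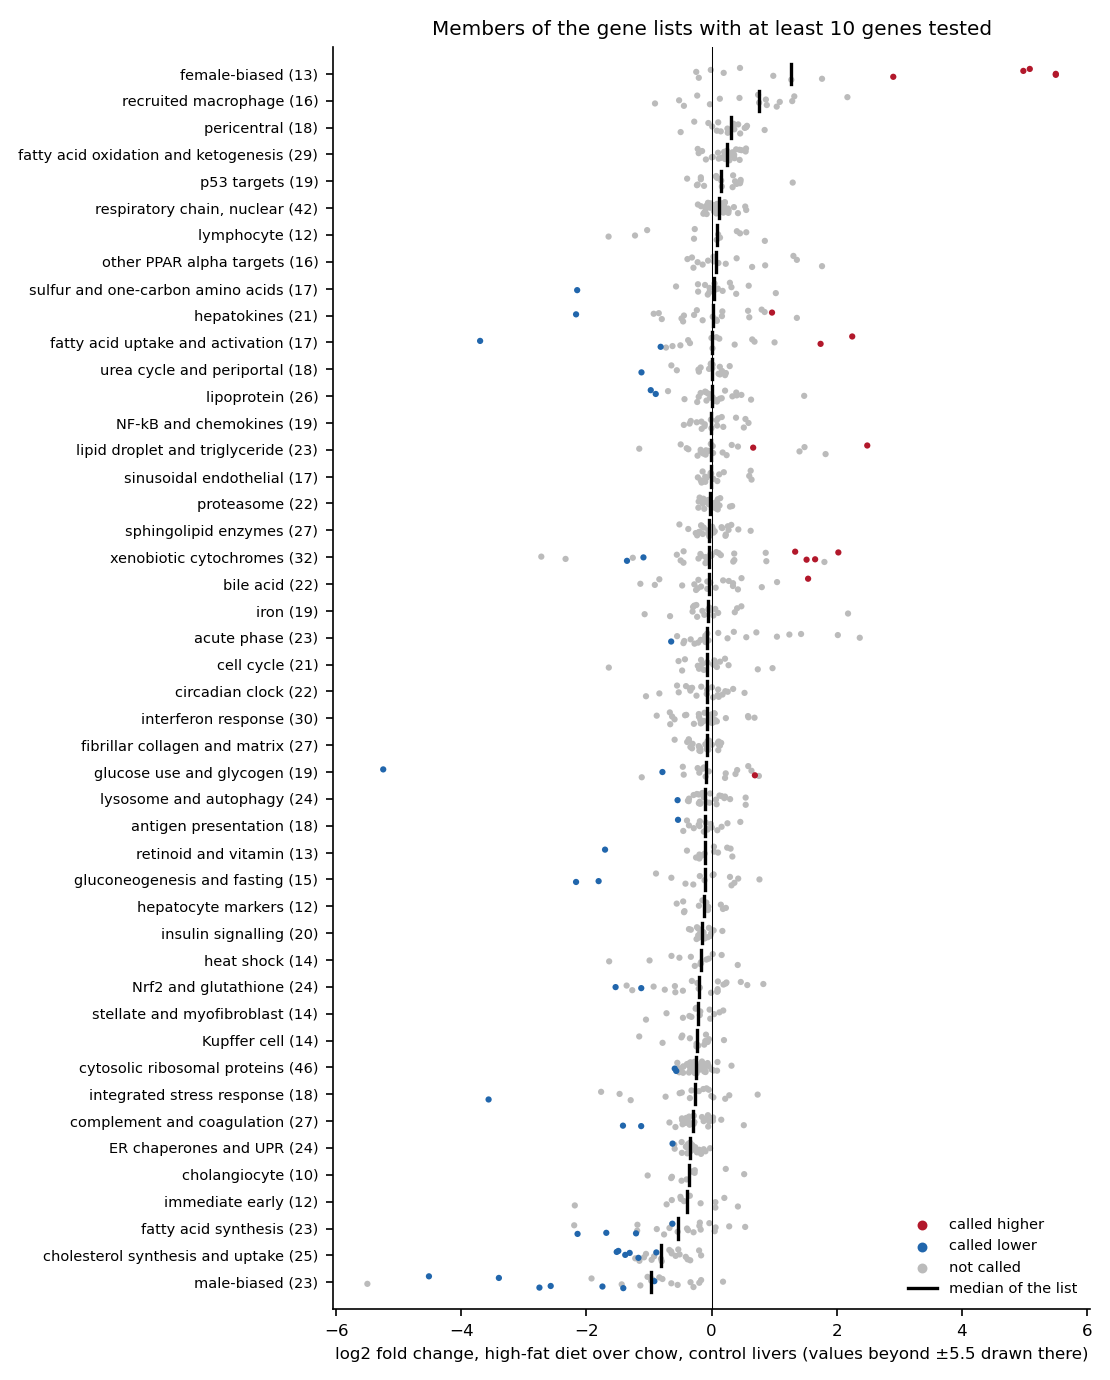
Each row is a gene list with at least 10 genes tested (number in brackets), each point a gene at its log2 fold change, high-fat controls over chow controls; red points were called higher, blue points lower, grey points not called, and the black bar is the median of the list. Male-biased, cholesterol and fatty acid synthesis genes lie lowest, with medians of -0.97, -0.81 and -0.54, and female-biased genes highest, with a median of 1.27.

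Interferon response, NF-kB and chemokine, matrix and clock genes gave 0 calls in control livers by edgeR. Across all genes tested, 1.83% were called and 17.1% had an unadjusted p under 0.05, in either direction. With an unadjusted p under 0.05 there were 4 of 30 interferon response genes, 2 of 19 NF-kB and chemokine genes, 1 of 27 fibrillar collagen and matrix genes and 0 of 22 clock genes. Recruited macrophage markers had a median of 0.75 over 16 genes, with 0 called and 7 at an unadjusted p under 0.05, 6 of them higher. Their summed level was 70.6 to 168 CPM in high-fat controls and 93.1 to 132 CPM in chow controls, so the groups overlapped, and the highest sum was that of high-fat control 3; without that liver the median was 0.36. Kupffer cell markers summed to 407 to 847 CPM in high-fat controls and 408 to 1047 CPM in chow controls, with 0 of 14 called and 1 at an unadjusted p under 0.05. Lymphocyte markers reached 125 CPM in high-fat control 4, against 89.9 CPM or less in chow controls, with 0 of 12 called or at an unadjusted p under 0.05. Cholangiocyte markers summed to 263 to 408 CPM in high-fat controls and 402 to 604 CPM in chow controls, with 0 of 10 called and 2 lower at an unadjusted p under 0.05; their part in the lower epithelial genes above was not tested. Stellate, endothelial and red blood cell markers overlapped between groups, and 10 of 11 exocrine pancreas markers were under 1 CPM in all 8 livers.

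Noncoding RNAs of the nucleus were highest in high-fat controls 1 and 2, the control livers with the largest share of unspliced RNA as defined above. Neat1 is the scaffold RNA of paraspeckles. For Neat1, the values were 826, 511, 27.3 and 91.2 CPM in high-fat controls 1 to 4, against 64.3, 54.8, 46.8 and 20.7 CPM in chow controls 1 to 4. High-fat control 3 lay inside the chow range (log2 fold change 2.96 with an SE of 0.68, adjusted p = 0.0300 by edgeR). The Neat1 call was lost once the share of unspliced RNA entered the fit as a covariate, without any 1 chow control and without high-fat control 1 or 2 (adjusted p up to 0.103). Malat1, another abundant nuclear RNA, had 4028, 2716, 179.6 and 1021 CPM in high-fat controls 1 to 4, against 569, 488, 249 and 666 CPM in chow controls 1 to 4. High-fat control 3 was below all chow livers (log2 fold change 2.01 with an SE of 0.57, adjusted p = 0.0759 by edgeR); in the fit with that covariate its log2 fold change was -0.08. Of 6 nuclear noncoding RNAs tested, 1 was called, all 6 had a positive fold change and the median was 1.82, or -0.01 with the covariate. Firre, an X-linked RNA (log2 fold change 1.94 with an SE of 0.39, adjusted p = 0.0149 by edgeR), and Ctcflos, listed on the strand opposite Ctcfl (log2 fold change 2.11 with an SE of 0.38, adjusted p = 0.00909 by edgeR), were also higher. The level of Ctcflos was 16.2, 9.43, 8.33 and 5.1 CPM in high-fat controls 1 to 4, against 3.11, 1.37, 2.72 and 1.76 CPM in chow controls 1 to 4. Ctcflos was called in every leave-one-out fit and Firre in all but that without chow control 2 (adjusted p = 0.0603). Of the protein-coding genes called higher, Wfdc2 and Omd, which encode secreted proteins, and the semaphorin gene Sema5b complete the 12 largest among genes called higher whose groups do not overlap and whose mean log2 CPM is 2 or more (2.10, 1.82 and 1.89; edgeR adjusted p = 0.0264, 0.00909 and 0.0300). Omd was called in every leave-one-out fit, Wfdc2 was lost without any 1 chow control, and Sema5b without any 1 chow control or high-fat control 2 (adjusted p up to 0.0865 and 0.113). The 8-liver fit did not call Neat1, Firre or Sema5b (adjusted p = 0.177, 0.0663 and 0.0687).

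Degs1 knockout livers, labelled high-fat or chow, gave a second diet comparison that shares no liver with the control comparison. Animal numbers were 82 to 92 in high-fat knockouts and 179 to 187 in chow knockouts. There too, diet and range of animal numbers cannot be told apart. The share of unspliced RNA was 0.162% to 0.191% in high-fat knockouts and 0.0463% to 0.0878% in chow knockouts, without overlap. In knockout livers the edgeR test called 1516 genes (10.6%) between high-fat and chow, 748 higher (5.21%) and 768 lower (5.35%). Of the 135 genes called higher in control livers, 80 (59.3%) were called higher in knockout livers too, and 128 had the same sign; these 80 are 10.7% of the 748. Of the 127 called lower, 70 (55.1%) were called lower in knockout livers and 120 had the same sign; they are 9.11% of the 768. Genes called in both but in opposite directions numbered 0. Over all genes tested, 51.9% had a positive and 48.1% a negative fold change in knockout livers. The genes called in control livers had median log2 fold changes of 1.84 in control and 1.49 in knockout livers (higher) and of -1.03 and -0.75 (lower); the genes were chosen for their change in control livers.

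**Figure D4:**
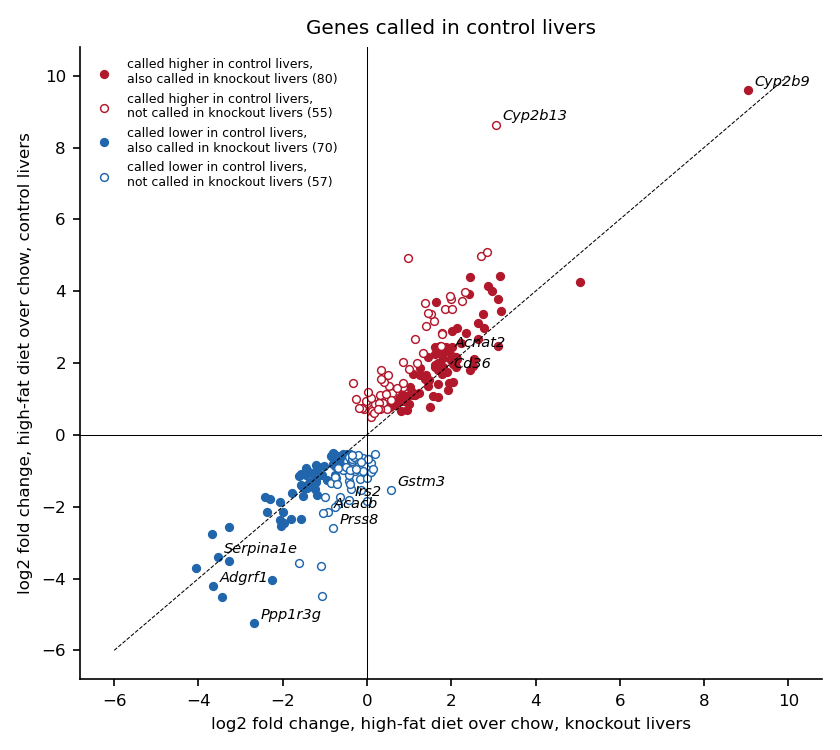
Each point is 1 of the 262 genes called in control livers, with its log2 fold change, high-fat over chow, in control livers on the vertical axis and in knockout livers on the horizontal axis; filled points were also called in knockout livers, and the dashed line marks equal values. Nearly all points lie where both values are positive or both negative, with 128 of 135 and 120 of 127 on the same side of 0.

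Several sex-biased genes were called in knockout livers as well: Cyp2b9 had a log2 fold change of 9.04 there, Serpina1e of -3.53, Cyp4a12a of -2.43 and C6 of -1.30 (edgeR adjusted p = 3.2e-06, 0.00430, 0.000167 and 0.00641), and 19 of the 23 male-biased genes were called lower. Of the 13 female-biased genes, 3 were called higher there, with a median of 0.83. Among the lipid genes, Fabp5 (-4.07), Acss2 (-1.17), Pmvk (-1.24) and Cd36 (1.90) were called in knockout livers in the same direction (edgeR adjusted p = 0.00142, 0.0194, 0.0107 and 0.0127), and the cholesterol list had a median of -0.71 with 9 calls lower. Acacb was not called there (-0.93, edgeR adjusted p = 0.0626), nor were Irs2 (-0.44, 0.404) or Gstm1 (-0.43, 0.137). Some lists with 0 calls in control livers had calls in knockout livers. Interferon response genes had a median of 1.07 there with 17 of 30 called higher, against -0.08 and 0 in control livers. Matrix genes had 0.70 with 13 of 27 called higher, against -0.08 and 0 in control livers.

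A test of the difference between the diet effects, control minus knockout, called 0 of 14351 genes with edgeR, while 1615 (11.3%) had an unadjusted p under 0.05; DESeq2 called 83. In the main edgeR fit, no gene is therefore shown to respond to diet in only 1 genotype. The edgeR fit with no low-count filter called 259 genes for the difference. The 5 genes with the smallest p among those at a mean log2 CPM of at least 2 were Fbxo30, Uba7, Oasl1, Col1a1 and Csf1, each at an edgeR adjusted p of 0.211. Col1a1, a chain of type I collagen, had a log2 fold change of -0.05 in control and 2.45 in knockout livers. The interferon-induced Oasl1 had -0.42 and 0.87, the ubiquitin-like modifier activating enzyme gene Uba7 0.07 and 1.27, the macrophage growth factor Csf1 -0.55 and 0.58, and the ubiquitin ligase gene Fbxo30 0.17 and -0.87.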

How the data were processed

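Per the labels' protocols, RNA was extracted from homogenised liver and made into libraries with the Illumina TruSeq Stranded kit after Ribo-Zero Gold depletion. The authors deposited whole-number read counts per gene and liver, and unequal library totals show that these counts were not normalized. The submitters' processing notes name the build GRCm38, STAR 2.5.4a, featureCounts 1.5.1 and DESeq2, without a role for each. No source used here gives the strand setting or the handling of multiply mapped reads. Of 53801 gene IDs, 53706 had a symbol and position in GENCODE of the same build.

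Groups came from the diet and genotype in the titles. Genes were filtered with filterByExpr (minimum count 10; 14351 kept) and scaled by TMM. All 16 livers entered a single model, in which each of the 4 groups had its own term, in edgeR 4.0.16 (R 4.3.3), and contrasts were tested by its quasi-likelihood F test, with Benjamini-Hochberg adjustment over all genes tested and a threshold of 0.05 (common biological coefficient of variation 0.247). A standard error is the size of the log2 fold change divided by the root of its F value. CPM uses TMM-scaled library sizes. A count of 3 corresponded to 0.129 to 0.214 CPM of the unscaled totals in control livers; floors cover counting error only. Within groups of control livers, chi-square per degree of freedom was 26.6 to 126 over 12 pairs, so each pair differed by more than counting noise.

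The members, the 54 gene lists and the tests were chosen with earlier results of these data known. Lists are given by counts and medians, with no set test. The text names Degs1, up to 12 genes per direction with the largest called fold change (mean log2 CPM of at least 2, groups that do not overlap, passing over models with only a number for a name), up to 4 members of a list with the smallest p, and 5 genes for the difference between diet effects; some were left out for length, and some genes are not reported here. On simulated counts for the diet comparison in control livers (14017 genes), the model recovered 38.8% of changes of 1 and 83.7% of changes of 2 on the log2 scale, with 4 false calls. Those counts were drawn gene by gene with the same spread in every group and no shift across a whole liver. The real livers differ in this, so these rates need not hold for them. Alternatives were DESeq2 1.42.0, limma 3.58.1 (voom, with and without quality weights), other scalings, filters and thresholds, the unspliced share as a covariate, offsets for transcript length and GC content (known for 99.9% of genes), the 8 control livers alone, and each liver left out in turn, with the genes tested kept. Knockout livers beyond the diet comparison were not analysed here.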

Additional observations from a re-analysis of the deposited data

Results flagged for a closer look

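In groups of 4 livers, a liver was marked when its gap to the nearest of the others exceeded Dixon's 95% critical share of the group's range. Over the 92 genes and 5 library measures examined in both groups of control livers, 8 of 194 sets of values were marked; chance marks about 1 in 20 groups.

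High-fat control 1 had 20.2 CPM of Sult1e1, and the others of its group 0.3 to 1.22 CPM. High-fat control 2 was the lowest of its group for C8b, at 151 CPM with the others at 220 to 233 CPM, and for Hmgcs1, at 285 CPM with the others at 473 to 500 CPM. High-fat control 3 had 92.5 CPM of Acsl4, with the others at 62.3 to 66.7 CPM. Chow control 3 was the highest of its group for 4 genes. It had 18 CPM of Cyp17a1 (others 6.43 to 8.15), 35.9 CPM of Tgm1 (others 9.2 to 12.9), 113 CPM of Nr1i3 (others 83.6 to 86.5) and 138 CPM of Srd5a1 (others 104 to 107). Sult1e1 and Tgm1 lost their calls without the liver named here; Cyp17a1, Nr1i3, Srd5a1, C8b and Acsl4 kept theirs.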

How the results depend on the processing

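No paired analysis was possible because each liver has its own animal number and the labels pair none of them. The counts of genes called in control livers (135 higher, 127 lower) moved with most choices. They were 293 and 87 with library totals only (which shifted the median of all genes by 0.125), 651 and 341 with no low-count filter, 412 and 378 with limma-voom under quality weights, 72 and 106 with plain limma-voom, 512 and 282 by DESeq2, 21 and 39 with the groups compared alone, 18 and 38 at 0.01, 378 and 266 at 0.10, and 110 and 66 with a log2 fold change of at least 1. They were 484 and 673 after the share of unspliced RNA was made a covariate (193 of the 262 shared), 118 and 214 with length and GC offsets, 170 and 100 with upper-quartile factors, 153 and 112 with RLE factors, and 156 and 112 without genes over 1% of counts. Leaving out 1 liver gave 39 to 629 higher and 64 to 326 lower; with both high-fat control 3 and chow knockout 1 left out they were 785 and 429. In knockout livers, 1516 calls became 3320 with library totals only, 4345 with quality weights, 2829 with those groups alone, 286 at 0.01, 2706 at 0.10, 640 with a log2 fold change of at least 1, 873 with the covariate, 2847 with length and GC offsets, 3283 without those 2 livers, and 497 to 2904 without 1 liver. The difference of the diet effects, 0 calls, became 259 with no low-count filter, 83 with DESeq2, 9 with quality weights and 0 to 1 without 1 liver. The cause of these shifts was not tested.

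Every gene called in control livers and named in the text kept its direction in the alternatives run. Sign changes were seen in genes not called. With the covariate, Malat1 (2.01 without it) had -0.0782 and Mlxipl (0.54 without it) -0.131; Malat1 was called by DESeq2 and under quality weights, among others. Srebf1 had 0.0102 with upper-quartile factors, 0.108 with library totals only, 0.211 with quality weights, 0.115 with length and GC offsets, 0.0702 without the 2 livers and -0.215 to 0.176 without 1 liver. Col1a1 had 6.77e-05 with upper-quartile factors, 0.0596 with library totals only, 0.0472 with limma-voom, 0.0105 with the covariate, 0.203 with length and GC offsets and -0.259 to 0.183 without 1 liver. Uba7 had -0.0020 with quality weights and -0.0311 to 0.184 without 1 liver, and Fbxo30 -0.0999 with length and GC offsets. Depth limited genes near 0.2 CPM, where 3 counts lie.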
